A study of Mus musculus with 6 samples.

Results

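The genes described here encode the enzymes that build, lengthen and desaturate fatty acids: Acly, Acaca, Acacb, Fasn, Elovl5, Elovl6, Scd1, Scd2, Fads1 and Fads2. They were taken by gene symbol (GENCODE M21 on GRCm38) and make up 10 of the 35709 genes in the deposited table. All 10 were found there, and 9 reached a mean of 1 FPKM (fragments per kilobase of transcript, scaled to library size), the level from which genes were tested. The remaining one, Acacb, stayed below it. The cells were AML12, an established mouse hepatocyte line derived from a mouse transgenic for human TGF-alpha. They had been transfected with Lipofectamine RNAiMAX and either a control siRNA, which the labels call WT (siCtrl), or an siRNA against Uhrf2 (siUhrf2), and total RNA was sequenced after 72 h. Each group held 3 libraries of 44.6 to 53.1 M estimated reads, and siRNA sequences were not analysed here. Whether replicates came from separate cultures is not stated in the labels. Every p-value therefore reflects the variation among these 6 libraries alone, and that variation may be technical.

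In the cytosol, ATP citrate lyase turns citrate into acetyl-CoA, acetyl-CoA carboxylase makes malonyl-CoA from it, and fatty acid synthase joins these units into the saturated fatty acid palmitate. Elongases then add carbon units, and desaturases introduce double bonds: stearoyl-CoA desaturases make monounsaturated fatty acids such as oleate, while the FADS desaturases with ELOVL5 make long polyunsaturated fatty acids from dietary precursors. In liver the transcription factor SREBP-1c, with LXR and ChREBP, is known to drive most of these genes, and the pathway is known for feeding triglyceride and membrane lipid synthesis.

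Uhrf2, which encodes a ubiquitin ligase that binds modified DNA, had 107, 108 and 108 FPKM in siCtrl and 35.3, 33.1 and 32.7 in siUhrf2, so the targeted gene matched the labels in every library. Of 11343 genes tested with limma at an adjusted p under 0.05, 61.0% changed, 29.9% higher and 31.1% lower in siUhrf2. The hepatocyte label was only partly borne out: Trf, Krt8, Krt18, Hnf4a and Apob had group means of 39.2 FPKM or more, while Alb, Apoa1, Cps1 and Asgr1 were below 1. Summed over all 11 hepatocyte markers the level was 2579 to 2783 FPKM in siCtrl and 3054 to 3233 in siUhrf2, with 3 of 7 measured markers higher and 1 lower. The keratin genes Krt8 and Krt18 went from 723 to 1033 and from 838 to 1168 FPKM and Hnf4a from 81.2 to 85.5, while Trf, the transferrin gene, fell from 1017 to 804. Apob, Ttr and Apoe did not pass, with 44.7, 6.13 and 2.46 FPKM in siCtrl and 39.2, 3.56 and 2.28 in siUhrf2. Of 6 adipocyte markers 0 reached 1 FPKM, with sums of 0.106 to 0.300 FPKM in siCtrl and 0.0336 to 0.175 in siUhrf2, and Lep was listed at 0. No fibroblast or endothelial marker reached a mean of 1 FPKM over the 6 libraries, with sums of at most 1.39 and 0.125 FPKM; the highest, Col1a1, had group means of 0.842 FPKM in siCtrl and 1.05 in siUhrf2. Macrophage markers summed to 104 to 111 FPKM in siCtrl and 98.6 to 111 in siUhrf2, most of it Cd14, with Adgre1 at 0 and Csf1r and Cd68 lower. Cholangiocyte markers summed to 2608 to 2790 FPKM in siCtrl and 2951 to 3236 in siUhrf2, with Epcam at 0. Of the 4 measured ones Krt19 and Sox9 were 1.98-fold and 1.13-fold higher, Krt7 was lower by a log2 change of -0.16, and Spp1, most of the sum, did not pass, at 2375 and 2473 FPKM. Cftr was below 1 FPKM, at 0.211 and 0.126. The part of the marker shifts in the results below was not tested.

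All 9 measured genes of fatty acid synthesis, elongation and desaturation rose in siUhrf2, against 29.9% of all genes tested. In each of the 9 the groups did not overlap, siUhrf2 being higher, which held for 32.5% of all genes tested. Their median log2 fold change was 0.61, beside -0.01 over all genes. The sizes differed widely, from 1.17-fold for Fasn to 2.72-fold for Scd1. Tested with limma treat against a change of 1.5-fold, Scd1, Elovl6, Scd2 and Fads1 passed upward, 4 of 9, where 1.21% of all genes did. Without siCtrl replicate 3, siUhrf2 replicate 2 or siUhrf2 replicate 3 only Scd1 and Elovl6 passed, and without siCtrl replicate 1 Scd2 did not pass (limma treat adjusted p = 0.0805). In bulk RNA, a change in the number of expressing cells and a change in RNA per cell cannot be told apart.

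**Figure D1:**
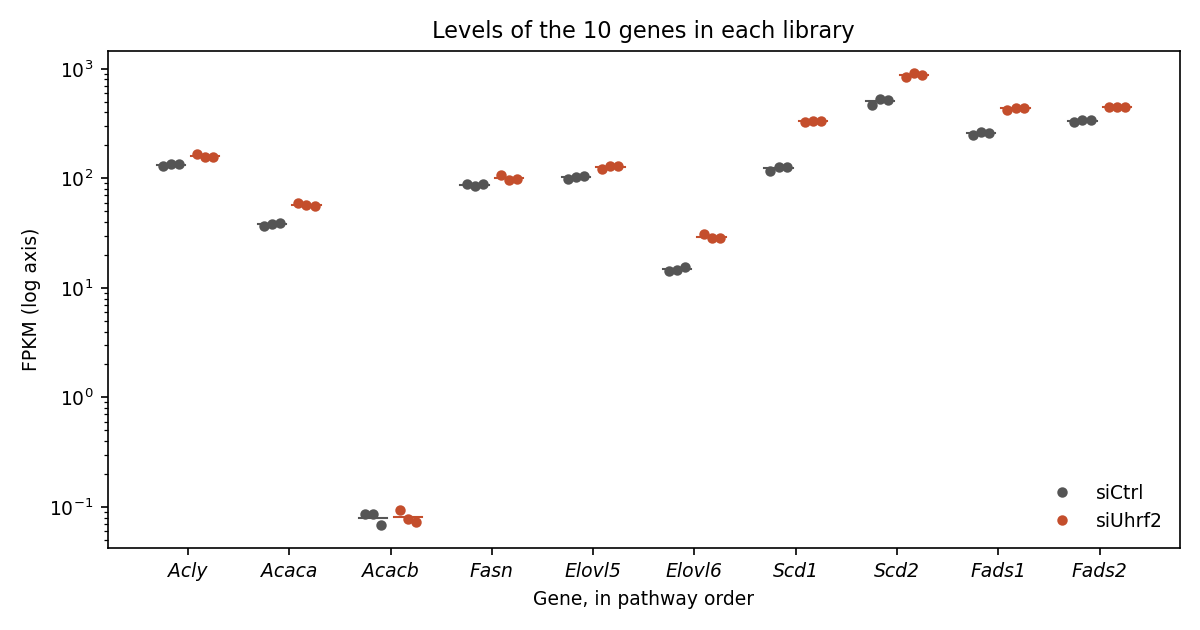
Level of each gene in FPKM (vertical log axis) for the 10 genes in pathway order; each point is 1 library, grey for siCtrl and orange for siUhrf2, and short bars are means of 3 libraries. The 9 measured genes lie between 14.2 and 910 FPKM with every siUhrf2 point above every siCtrl point, while Acacb lies under 0.1 FPKM in both groups.

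Of the genes of the first steps, Acly and Fasn had the smallest fold changes of the 9, and Acaca lay at their median. Acly, which encodes ATP citrate lyase, had 129, 134 and 135 FPKM in siCtrl and 166, 158 and 158 in siUhrf2, so the lowest siUhrf2 library was above the highest siCtrl library. The mean went from 132 ± 3.42 to 161 ± 4.78 FPKM (SD, n = 3), and the fold change on normalized counts was 1.23 (95% CI 1.16 to 1.29, limma adjusted p = 1.74e-05). Acly lies on the minus strand of chromosome 11 from 100476353 to 100528000 (GRCm38).

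Acaca, which encodes the cytosolic acetyl-CoA carboxylase, had 36.8, 38.6 and 39.0 FPKM in siCtrl and 59.3, 57.4 and 56.5 in siUhrf2. The siUhrf2 libraries lay close together and well above the siCtrl libraries. Its fold change was 1.53 (95% CI 1.45 to 1.61, limma adjusted p = 6.29e-08), larger than that of either Acly or Fasn, with intervals that did not overlap theirs. Acaca spans 84129672 to 84401651 of chromosome 11 (plus strand). Of the 31-base words in its transcripts 31.7% also occur in Gm5182, a processed pseudogene on chromosome 12. Gm5182 was not found by symbol in the deposited table, and reads from the gene and the pseudogene cannot be fully separated.

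Acacb encodes the carboxylase isoform at the mitochondrial outer membrane, whose malonyl-CoA is known to restrain fatty acid oxidation. It was nearly absent, with 20.9, 21.2 and 16.7 normalized counts in siCtrl and 22.9, 19.3 and 18.1 in siUhrf2, or 0.0681 to 0.0937 FPKM over all libraries. The groups overlapped. In the fit without a filter on low values its log2 difference was 0.04 (95% CI -0.60 to 0.67, limma adjusted p = 0.96), so at this depth changes between 0.66-fold and 1.60-fold were inside the interval. Acacb is on chromosome 5 from 114146535 to 114250761. Acaca had 429, 448 and 572 times the FPKM of Acacb in the siCtrl libraries and 632, 739 and 777 times in the siUhrf2 libraries.

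Fasn, the gene of fatty acid synthase, rose least. It had 88.2, 85.3 and 88.1 FPKM in siCtrl and 107, 96.5 and 99.1 in siUhrf2, and siUhrf2 replicate 1 stood above the other two. The fold change was 1.17 (95% CI 1.10 to 1.23, limma adjusted p = 0.000280), which ranked 2247 of the 11343 genes by size of rise. Fasn lies on the minus strand of chromosome 11 from 120805846 to 120824547, so that 3 of the 10 genes are on that chromosome.

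**Figure D2:**
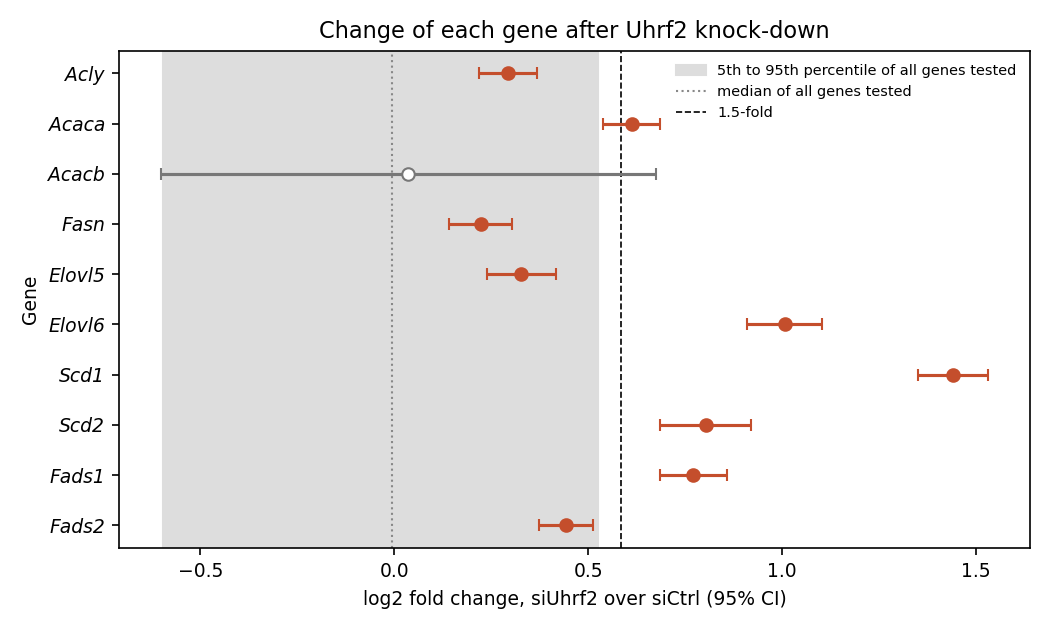
log2 fold change of siUhrf2 over siCtrl for each gene (horizontal axis) with 95% confidence intervals from the limma fit, beside the 5th to 95th percentile of all 11343 genes (grey band, -0.60 to 0.52) and a line at 1.5-fold. Scd1, Elovl6, Scd2 and Fads1 lie wholly beyond 1.5-fold; Acacb (open point) comes from the fit without a filter and has an interval across 0.

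The elongases differed from each other. Elovl6, which extends palmitate and palmitoleate to chains of stearate length, had 14.2, 14.6 and 15.4 FPKM in siCtrl and 30.8, 28.6 and 28.6 in siUhrf2. Each siUhrf2 library was near 2 times the siCtrl level, with a fold change of 2.01 (95% CI 1.88 to 2.15, limma adjusted p = 1.21e-08). Elovl5, the elongase of polyunsaturated chains, had 98.5, 104 and 106 FPKM in siCtrl and 123, 131 and 130 in siUhrf2, a fold change of 1.26 (95% CI 1.18 to 1.34, limma adjusted p = 3.38e-05). Elovl5 therefore stayed the more abundant elongase while Elovl6 rose more. Within a library the ratio of Elovl6 to Elovl5 was 0.144, 0.141 and 0.146 in siCtrl and 0.251, 0.219 and 0.221 in siUhrf2. Elovl6 lies on chromosome 3 from 129532355 to 129638495 and Elovl5 on chromosome 9 from 77917364 to 77984519, both on the plus strand. Of the 31-base words of Elovl6 5.53% also occur in Gm11295, a processed pseudogene on chromosome 13 that was not found by symbol in the deposited table. A small part of the Elovl6 reads therefore cannot be assigned to the gene alone.

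RefSeq promoter windows (GRCm38.p6), from 250 bases before to 50 bases after the start, were matched for 7 of the 10 genes. For Scd1, Scd2 and Fads1 no window was available. Windows are shown for Fasn, which rose least, and for the pair of elongases, whose ratio moved. They are Fasn at chr11:120824498-120824797 (minus strand), Elovl5 at chr9:77917115-77917414 (plus strand) and Elovl6 at chr3:129532136-129532435 (plus strand), each printed 5′ to 3′ along its gene. Capitals mark the E-box CACGTG and, on either strand, the CCAAT box.
Fasn: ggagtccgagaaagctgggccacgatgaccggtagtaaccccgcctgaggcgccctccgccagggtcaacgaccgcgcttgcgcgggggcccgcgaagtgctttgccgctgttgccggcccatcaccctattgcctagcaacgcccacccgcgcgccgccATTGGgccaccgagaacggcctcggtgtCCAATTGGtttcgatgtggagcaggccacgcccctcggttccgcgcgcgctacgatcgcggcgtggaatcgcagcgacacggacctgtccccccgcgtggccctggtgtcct
Elovl5: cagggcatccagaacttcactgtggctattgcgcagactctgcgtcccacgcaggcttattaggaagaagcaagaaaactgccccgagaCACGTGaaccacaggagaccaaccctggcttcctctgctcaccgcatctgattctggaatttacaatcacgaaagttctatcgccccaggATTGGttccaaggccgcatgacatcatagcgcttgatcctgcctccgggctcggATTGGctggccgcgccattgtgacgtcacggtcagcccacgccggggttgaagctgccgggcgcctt
Elovl6: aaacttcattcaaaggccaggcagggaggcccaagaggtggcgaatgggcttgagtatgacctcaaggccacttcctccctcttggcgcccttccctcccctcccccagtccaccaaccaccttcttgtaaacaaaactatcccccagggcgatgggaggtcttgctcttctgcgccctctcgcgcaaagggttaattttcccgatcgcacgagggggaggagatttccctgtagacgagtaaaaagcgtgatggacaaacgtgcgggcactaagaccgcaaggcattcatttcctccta

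In the Fasn window CCAAT boxes were found at 90 and 59 bases before the start in reverse and at 62 bases before it forward, the last overlapping the one at 59. Elovl5 had reverse CCAAT boxes at 71 and 17 bases before the start and the E-box at 161, and the Elovl6 window held neither. Over the 7 windows, on both strands, CCAAT was found in 4 genes, the E-box in 1, the GC box GGGCGG in 2 and the nuclear receptor core motif AGGTCA in 3. Over the 32851 windows of the RefSeq table the shares were 37.4%, 7.15%, 35.7% and 16.3%. The sterol regulatory element form TCACNCCAC, present in 1.24% of all windows, was found in 0 of the 7. Scd1, Scd2 and Fads1, which passed limma treat against 1.5-fold, were not searched. The motif counts are matches of letters in a short window and were not tested against the changes. For Acaca and Acacb the RefSeq start lies 65766 and 18983 bases from the start of the GENCODE gene, so their windows belong to inner starts. The Acacb window is among those counted for CCAAT and for AGGTCA.

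The stearoyl-CoA desaturases held the highest level and the largest rise of the 10 genes. Scd1, the hepatic delta-9 desaturase, had 117, 127 and 128 FPKM in siCtrl and 329, 336 and 335 in siUhrf2. The siUhrf2 libraries differed from one another by far less than from any siCtrl library. The fold change was 2.72 (95% CI 2.55 to 2.89, limma adjusted p = 1.01e-09), the 39th largest rise of 11343. Scd2, a delta-9 desaturase known mainly from brain and from fetal and neonatal liver of the mouse, was the more abundant one, with 471, 535 and 524 FPKM in siCtrl and 849, 910.0 and 883 in siUhrf2. It ranked 123rd of all genes in the table by mean FPKM, and its fold change was 1.74 (95% CI 1.61 to 1.89, limma adjusted p = 3.36e-07).

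Scd2 exceeded Scd1 in every library, but by less after knock-down. The ratio of Scd1 to Scd2 was 0.248, 0.238 and 0.245 in siCtrl and 0.388, 0.369 and 0.380 in siUhrf2. Summed, the desaturases Scd1 and Scd2 went from 634 ± 40.8 to 1214 ± 33.7 FPKM (SD, n = 3). The genes lie in one cluster on chromosome 19, Scd2 (plus strand) at 44293674 to 44306864 and Scd1 (minus strand) at 44394455 to 44407879. The other desaturase genes of the cluster, Scd3 and Scd4, were close to 0, at 0.0732 and 0.0922 FPKM in siCtrl and 0.0724 and 0.141 in siUhrf2. Of the 31-base words of Scd1 5.18% also occur in Scd2 and 5.84% in Scd3, so a small part of the reads cannot be assigned to 1 copy.

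The desaturases of polyunsaturated fatty acids rose unequally. Fads1, the delta-5 desaturase, had 248, 267 and 258 FPKM in siCtrl and 423, 443 and 439 in siUhrf2, a fold change of 1.71 (95% CI 1.61 to 1.81, limma adjusted p = 3.45e-08). Fads2, the delta-6 desaturase that acts before it, had 329, 339 and 338 FPKM in siCtrl and 452, 451 and 452 in siUhrf2, a fold change of 1.36 (95% CI 1.29 to 1.43, limma adjusted p = 5.18e-07). Fads2 was above Fads1 in every library, and their distance narrowed from a ratio of 0.754, 0.786 and 0.761 (Fads1 over Fads2) in siCtrl to 0.935, 0.983 and 0.972 in siUhrf2. They lie beside each other on chromosome 19, Fads2 on the minus strand from 10062765 to 10101746 and Fads1 on the plus strand from 10182888 to 10196877.

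**Figure D3:**
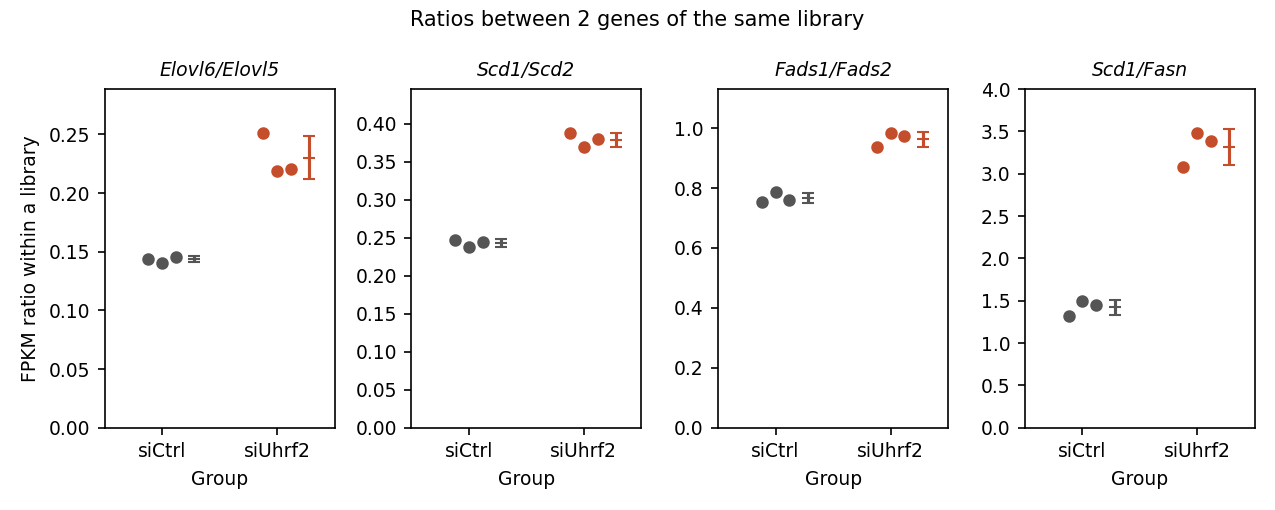
Ratio of the FPKM values of 2 genes in the same library (vertical axis from 0) for 4 pairs; points are libraries, and bars beside them are mean ± SD of 3. In each pair the 3 siUhrf2 ratios lie above the 3 siCtrl ratios, most widely for Scd1 over Fasn (1.42 ± 0.090 and 3.31 ± 0.21).

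These within-library ratios do not depend on how libraries were scaled to one another. For 5 ratios compared (Acaca to Acacb, Elovl6 to Elovl5, Scd1 to Scd2, Fads1 to Fads2, Scd1 to Fasn) the groups did not overlap, and the log2 differences were 0.57, 0.68, 0.64, 0.33 and 1.22. The first rests on Acacb, below 1 FPKM, and moved between 0.50 and 0.70 with 1 library left out. The pairs were set with earlier results known. In each the gene that rose more stands on top, so the differences largely restate the fold changes above. How often other gene pairs do not overlap was not computed. Each ratio gave p = 0.10 in an exact permutation test (two-sided), also after Benjamini-Hochberg adjustment over the 5, which is the smallest value that 3 against 3 libraries allow. The ratio of Scd1 to Fasn, desaturation against chain synthesis, was 1.32, 1.49 and 1.46 in siCtrl and 3.08, 3.48 and 3.38 in siUhrf2.

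By FPKM the order of levels in siCtrl was Scd2, Fads2, Fads1, Acly, Scd1, Elovl5, Fasn, Acaca, Elovl6 and Acacb, and the ranges of neighbours in that order did not overlap. In siUhrf2 the order was the same except that Scd1 stood above Acly, again without overlap between neighbours. The 10 genes summed to 1602 ± 62.3 FPKM in siCtrl and 2577 ± 35.3 in siUhrf2 (SD, n = 3), and the Scd and Fads desaturases made up 1227 ± 55.2 and 2101 ± 43.2 of it. The share of Scd1 in the sum went from 7.74% ± 0.12 to 12.9% ± 0.071, that of Scd2 from 31.8% ± 0.94 to 34.2% ± 0.71 and that of Fads1 from 16.1% ± 0.25 to 16.9% ± 0.19. The shares of Fads2, Acly, Elovl5 and Fasn were lower in siUhrf2, at 17.5% against 20.9%, 6.24% against 8.27%, 4.95% against 6.41% and 3.92% against 5.45%.

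On normalized counts the replicates moved partly together. In siCtrl, replicate 1 was the lowest of the 3 libraries for 8 of the 9 measured genes, Fasn being the exception; over all genes tested it was the lowest for 45.2%. In siUhrf2, replicate 1 was the lowest for 5 genes, Elovl5, Scd1, Scd2, Fads1 and Fads2, and the highest for 4, Acly, Acaca, Fasn and Elovl6. Over all genes tested it was the lowest for 43.4% and the highest for 35.1%. Scd2 had the widest spread within siCtrl, a coefficient of variation of 7.17% on normalized counts, and Fads2 the narrowest within siUhrf2, 0.90%. In FPKM the siUhrf2 order of Fads2 differed, with replicate 1 the highest at 452.3 against 450.6 and 451.6.

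**Figure D4:**
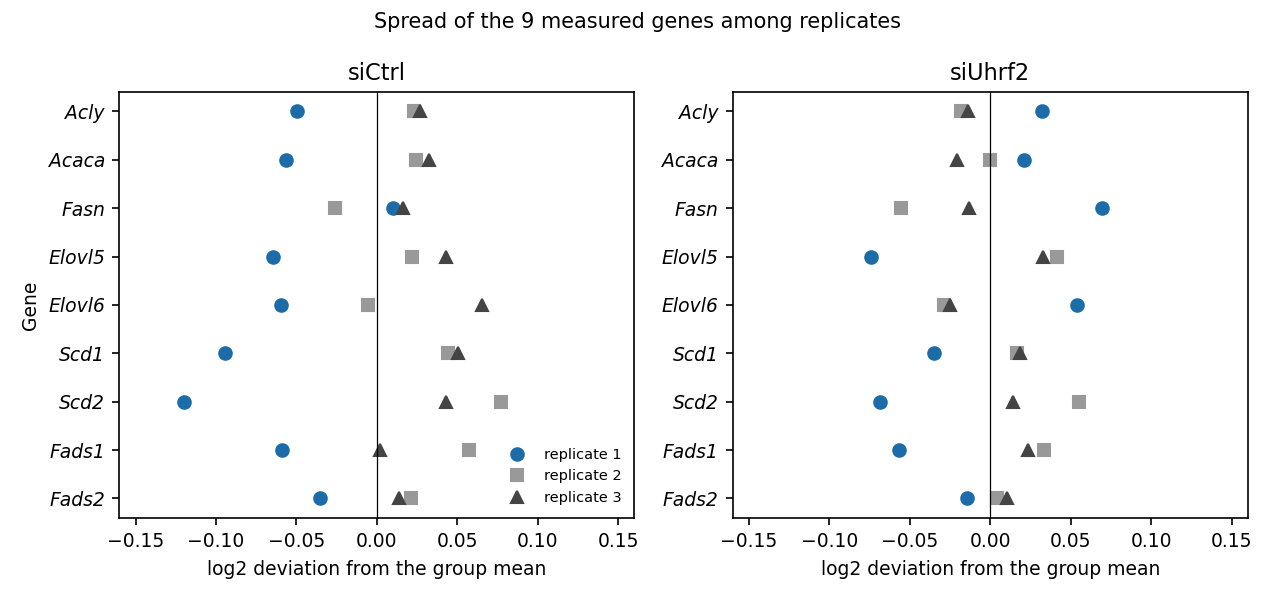
log2 deviation of normalized counts from the group mean (horizontal axis) for the 9 measured genes, siCtrl left and siUhrf2 right. Each point is 1 library, and symbols mark the replicate number. Replicate 1 lies left of the other siCtrl libraries for all genes but Fasn, and in siUhrf2 it lies left for Elovl5 and the 4 desaturases and right for Acly, Acaca, Fasn and Elovl6.

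Likeness of change was measured as the root mean square difference, over the 6 libraries, of log2 deviations from the siCtrl mean, among 9325 genes of at least 5 FPKM. With each gene set to its siCtrl mean, a small difference means a similar size of change. Shared regulation was not tested. For Scd1 the nearest were Gm4631 (0.031), the epithelial gene Scel (0.035), Fdps, which encodes farnesyl diphosphate synthase of the sterol pathway (0.066), Lss, the lanosterol synthase gene (0.066), and the epithelial membrane gene Emp1 (0.084). For Fasn they were Wdr70, Lyplal1, Zfp143, Pank3 and Zmym2, at 0.017 to 0.025. Among the 9 genes themselves Scd2 and Fads1 were the closest pair (0.040) and Fasn and Scd1 the farthest (0.865). Scd1 differed from Scd2 of the same cluster by 0.45, and Fads1 from Fads2 by 0.23.

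The nearest protein-coding genes on both sides came to 17 genes other than the 10, of which 9 were measured: 0 rose, 3 fell and 6 did not pass, with a median log2 fold change of -0.11. The count that fell is near the 31.1% of all genes that did, while 29.9% of all genes rose. Fads3, a desaturase-like gene 2655 bases from Fads2, fell from 239 to 220 FPKM (log2 change -0.11, limma adjusted p = 0.0079). Fen1, the flap endonuclease gene 2255 bases from Fads1, fell by 0.17 on the log2 scale (limma adjusted p = 0.0027). Gclc, a glutathione synthesis gene 122879 bases from Elovl5, fell by 0.20 (limma adjusted p = 0.00012). Tada2a, which lies 72 bases from Acaca on the opposite strand and is read away from it, had 27.4 against 29.0 FPKM and did not pass (limma adjusted p = 0.074). Of the genes overlapping the 10, those with a value had group means of at most 0.101 FPKM. No source names a strand setting for the counting, so reads of overlapping antisense genes cannot be told apart.

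Counts in the pathway lists that follow stand beside the shares of all genes tested, 29.9% higher and 31.1% lower. Of 8 genes that supply carbon and NADPH, 6 rose, 0 fell and 2 did not pass, with a median log2 fold change of 0.34 beside -0.01 over all genes. Slc25a1, the mitochondrial citrate carrier, went from 77.8 to 105 FPKM (1.36-fold, limma adjusted p = 1.20e-06). The NADPH-producing enzyme genes Idh1, Me1 and Pgd rose 1.52-fold, 1.32-fold and 1.21-fold. Acss2, which makes acetyl-CoA from acetate and lies under the level set for naming, rose 2.47-fold from 2.55 to 6.23 FPKM (limma adjusted p = 1.30e-06) and was picked out after its value was seen.

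Of 11 other genes of elongation 7 were measured, of which 3 rose, 2 fell and 2 did not pass (median 0.12), near the 29.9% and 31.1% of all genes. Hacd1 and Hacd3 encode 3-hydroxyacyl-CoA dehydratases: Hacd1 rose 1.62-fold and Hacd3 fell by 0.24 on the log2 scale. Hsd17b12, the ketoacyl-CoA reductase, and Tecr, the enoyl-CoA reductase, rose 1.19-fold and 1.25-fold. Of the other elongases, named outside the rule to complete the family, Elovl1 and Elovl7 had log2 differences of 0.09 and 0.12 and did not pass. Elovl2 and Elovl4 had group means below 0.01 FPKM, and Elovl3 was listed at 0.

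Among the other desaturases and the proteins that bring electrons to them, 1 of 7 measured genes rose, 4 fell and 2 did not pass (median -0.11), beside 29.9% higher and 31.1% lower over all genes. Cyb5a, the cytochrome b5 that donates electrons to acyl-CoA desaturases, rose 1.23-fold from 197 to 240.5 FPKM. Cyb5r3, its reductase, fell by 0.14 on the log2 scale, and Degs1, the dihydroceramide desaturase of sphingolipid synthesis, by 0.52 (limma adjusted p = 1.03e-06). Mitochondrial fatty acid synthesis, a separate route that makes the lipoic acid precursor, had 2 of 7 measured genes higher, 0 lower and 5 not passing (median 0.07), near the 29.9% of all genes that rose. Cbr4, a subunit of its ketoacyl reductase, rose 1.45-fold, while Mecr, Ndufab1 and Acsf3 had log2 differences of -0.05, 0.07 and 0.10 and did not pass.

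Of 7 measured genes of acyl-CoA synthetases and carriers 5 rose, 1 fell and 1 did not pass (median 0.35), where 29.9% of all genes rose and 31.1% fell. Acsl3, an acyl-CoA synthetase of the endoplasmic reticulum and lipid droplets, went from 73.4 to 145 FPKM (2.0-fold, limma adjusted p = 1.01e-09). Acsl5 rose 1.29-fold, Dbi, the acyl-CoA binding protein gene, 1.26-fold and Acot7, a thioesterase gene, 1.31-fold. The one that fell was Acsl4, by 0.25 on the log2 scale; it encodes a synthetase with a preference for arachidonate and is named outside the rule.

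**Figure D5:**
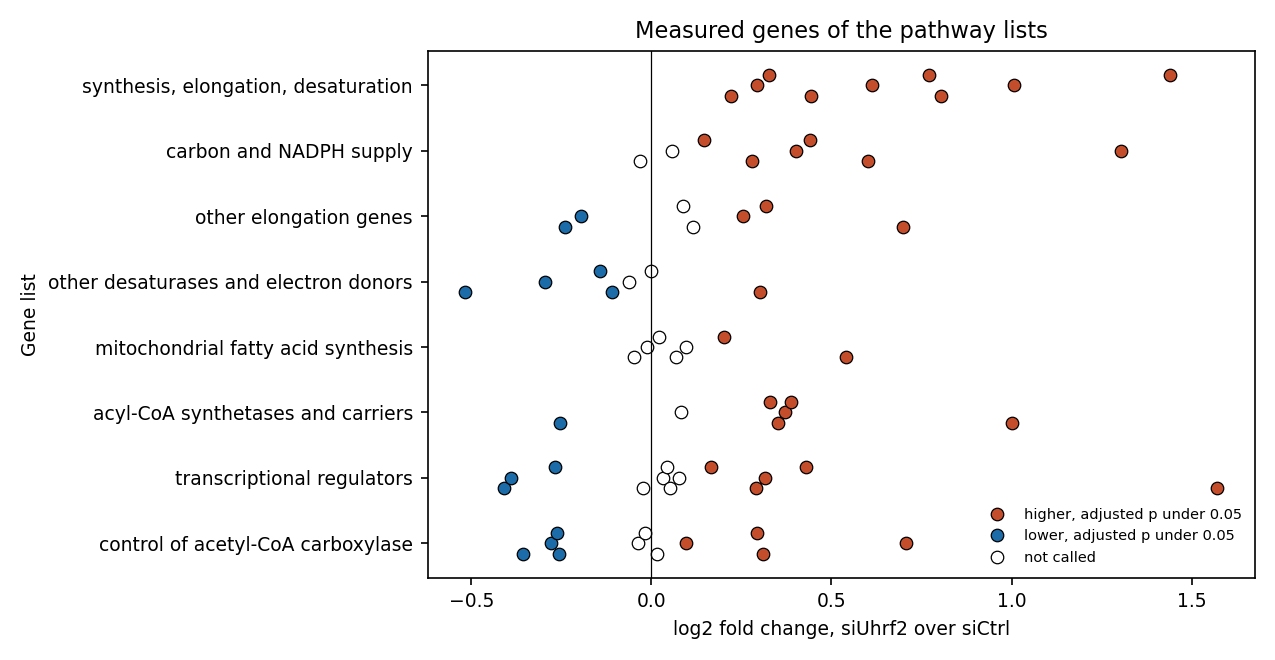
log2 fold change of siUhrf2 over siCtrl (horizontal axis) for each measured gene of the fatty acid genes (top) and of 7 pathway lists; each point is 1 gene, orange if higher, blue if lower and white if not called at a limma adjusted p under 0.05. The 9 genes of the top row are all orange, 6 of 8 supply genes are, and each of the 7 lists holds points on both sides of 0.

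Of 13 measured transcriptional regulators of the pathway 5 rose, 3 fell and 5 did not pass (median 0.05), near the shares over all genes of 29.9% higher and 31.1% lower. Insig1, which retains SREBPs in the endoplasmic reticulum and is itself an SREBP target, rose 2.97-fold, and Srebf1, Srebf2 and Usf2 rose 1.22-fold, 1.25-fold and 1.35-fold. Srebf1 was named in addition to the rule. Nr1h3, the LXR-alpha gene, fell by 0.41 on the log2 scale (limma adjusted p = 1.79e-05). The ChREBP gene Mlxipl and its partner Mlx, also added, fell by 0.27 and 0.39. Gene-level values do not separate the SREBP-1a and SREBP-1c transcripts of Srebf1.

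Among 11 genes that set the activity of acetyl-CoA carboxylase, 4 rose, another 4 fell and 3 missed the threshold (median -0.02), near the shares over all genes. Prkaa1, a catalytic subunit of AMPK, the kinase that inhibits the carboxylases, rose 1.63-fold from 16.5 to 26.7 FPKM (limma adjusted p = 1.05e-08). The regulatory subunit genes Prkab1 and Prkag1 fell by 0.26 and 0.28 on the log2 scale, and Camkk2, an upstream kinase gene, by 0.36. Mid1ip1, which encodes a protein that promotes carboxylase polymerization and was added after its value was seen, was high in both groups, at 621 and 657 FPKM, and rose 1.07-fold. RNA levels do not show phosphorylation or enzyme activity.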

How the data were processed

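Groups and replicate numbers came from the sample titles, and the table's columns carry the same names, with 0 columns unused. Per the file headers, the authors deposited, for every gene, a normalized count (a signal, not whole numbers) and an FPKM level in each of the 6 libraries. Kallisto 0.44.0, edgeR and GRCm38.p6 appear in the submitters' processing notes, without their roles; annotation and filters are not stated there. The most frequent low value gave the worth of 1 read and so the estimated depth; only 63.0% to 64.9% of values above 0 were whole reads within 0.01, so no count test was used. Genes with few reads, here Acacb, are the least precise.

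Symbols and 1-based coordinates are from GENCODE M21. The fit was limma 3.58.1 (R 4.3.3), run with trend and robust options on the log2 of the deposited normalized count plus 1, for the 11343 genes whose mean FPKM reached 1. Calls are Benjamini-Hochberg adjusted p under 0.05 over all of them, and fold changes are 2 to the power of the log2 change on that scale. The fit was also run on simulated data with independent noise and few changed genes. That setting cannot show how the fit behaves where most genes are called, as here. Shared 31-base words were counted in GENCODE M21 transcripts on both strands. The planned protein comparison was not run. Of 8 listed mitochondrial synthesis genes, 7 matched by symbol. Genes were named as all 10 members, the 4 smallest adjusted p-values of each list at 5 FPKM or more, chromosomal neighbours, and the 5 genes nearest to Scd1 and to Fasn. Other genes are marked in the text as named outside this rule, apart from the marker genes and genes sharing words. The members, lists and tests were chosen with earlier results of these data known.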

Additional observations from a re-analysis of the deposited data

How the results depend on the processing

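All 9 measured genes stayed higher at an adjusted p under 0.05 with 4 other scalings, pseudocounts of 0.5 and 5, no filter or a filter at 5 FPKM, log2(FPKM + 1), limma without trend and robust variances, an adjusted p under 0.01, and each library left out. The number of genes changed was 6919, and 5354 to 7435 under those alternatives, 6010 to 7047 with 1 library left out. Limma treat against 1.5-fold, which asks for more, called 342 genes and 4 of the 9. That count was 2 to 4 when 1 library was left out, an alternative chosen after the data were seen. Scd2 lost this call without siCtrl replicate 1 (adjusted p = 0.0805), siCtrl replicate 3 (0.075), siUhrf2 replicate 2 (0.163) or siUhrf2 replicate 3 (0.151), and under quantile normalization, which left 3 genes and lowered its log2 fold change from 0.80 to 0.61. Fads1 lost it without siCtrl replicate 3 (0.0664), siUhrf2 replicate 2 (0.0725) or siUhrf2 replicate 3 (0.0831). Scd1 and Elovl6 passed in each. The cause was not tested. Leaving out 1 library moved the log2 fold change of Scd1 between 1.39 and 1.47 and that of Fasn between 0.19 and 0.25, and the log2 difference of the Scd1 to Scd2 ratio between 0.62 and 0.66. Uhrf2 stayed between -1.69 and -1.64.

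Same-numbered samples of the groups deviated together with r = 0.176, 0.236 and 0.066 across genes, and each sample correlated best with its own number. The labels name no pairing, and the main fit did not take the numbers as pairs. With the replicate number as a block 7248 genes and all 9 fatty acid genes were called. Limma treat was not run with this block.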
